A study of Rattus norvegicus with 8 samples.

Results

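Transcripts of 7 genes that low oxygen is known to induce, and that have roles outside glycolysis, were followed in H9c2 cells kept in space or on the ground: Ero1a, Bnip3, Higd1a, Adm, Vegfa, Car9 and Ankrd37. The genes were chosen by name, with earlier results of these arrays known, since hypoxia-responsive genes had already been seen to lie higher in space. Their differences between space and ground are therefore a description and carry no test. All 7 of the 7 genes were on the array, each through 1 probe set, out of 15037 gene symbols in all.

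H9c2 is a myoblast line from embryonic rat heart that can form skeletal muscle-like myotubes, and every array came from this 1 line. The tested agent was nanoceria, cerium oxide nanoparticles coated with fetal bovine serum and given at 100 µg/ml in a low-serum differentiation medium. The 8 arrays comprised 2 of nanoceria-treated cells aboard the International Space Station, 1 of untreated cells in space (replicate 1), 3 of nanoceria-treated cells on ground and 2 of untreated cells on ground (replicates 1 and 3). All cultures had been seeded at 35000 cells per square centimetre. The flight cultures were carried in a thermal pouch (27 °C at the start) until day 7, were then incubated at 37 °C and were fixed in RNAlater on day 10. The ground cultures repeated the logged temperature course afterwards, so gravity regime and culture run cannot be told apart. Oxygen in the culture units was not among the data used here.

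Cells sense oxygen through prolyl hydroxylases that mark the alpha subunits of the hypoxia-inducible factors (HIF) for destruction through the Vhl protein. When oxygen falls, HIF alpha subunits persist, pair with Arnt and bind a short core sequence, ACGTG or GCGTG, near their target genes. Glycolytic enzymes are the best known targets in muscle. The 7 genes here belong to other branches of the same response: protein oxidation in the endoplasmic reticulum (Ero1a), mitochondrial turnover and respiration (Bnip3, Higd1a), secreted signals to blood vessels (Adm, Vegfa), pH at the cell surface (Car9), and an ankyrin repeat protein with a less settled role (Ankrd37).

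RefSeq windows of 300 bases around a gene's start (250 before it and 50 after, build GRCr8) were matched for 6 of the 7 genes, all but Ero1a. They were searched for ACGTG and GCGTG on both strands, and overlapping matches were joined into 1 stretch. Of all 33469 windows in the rat table, 41.6% held at least 1 such stretch, 15.9% at least 2, 5.84% at least 3 and 2.0% at least 4. Bnip3 (chr1:203154913-203155212, minus strand) had 3 stretches, Higd1a (chr8:130400839-130401138, minus strand) had 3, Ankrd37 (chr16:53001257-53001556, plus strand) had 4 and Car9 (chr5:62558774-62559073, plus strand) had 1. In Bnip3 and in Ankrd37, 1 stretch is a palindrome that reads ACGTG on both strands. The Adm window and both Vegfa windows had 0, which says only that these letters are not in those windows. The 4 windows with a match are printed 5′ to 3′ on the gene's strand, because they are the ones in which the HIF core letters can be seen. Capitals mark the matches, which read CACGT or CACGC where they lie on the other strand, and the gene's start follows base 250.
Bnip3: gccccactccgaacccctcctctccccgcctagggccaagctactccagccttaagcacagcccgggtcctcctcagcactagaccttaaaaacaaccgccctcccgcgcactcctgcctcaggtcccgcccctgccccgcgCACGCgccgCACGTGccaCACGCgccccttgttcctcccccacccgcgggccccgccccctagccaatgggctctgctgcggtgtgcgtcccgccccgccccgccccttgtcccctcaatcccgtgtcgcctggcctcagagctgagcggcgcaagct
Higd1a: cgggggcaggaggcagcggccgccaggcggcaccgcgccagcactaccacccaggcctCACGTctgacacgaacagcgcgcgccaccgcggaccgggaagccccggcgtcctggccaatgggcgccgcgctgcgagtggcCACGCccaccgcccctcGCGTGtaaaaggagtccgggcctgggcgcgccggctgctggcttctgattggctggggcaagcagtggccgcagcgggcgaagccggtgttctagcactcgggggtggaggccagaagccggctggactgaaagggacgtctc
Ankrd37: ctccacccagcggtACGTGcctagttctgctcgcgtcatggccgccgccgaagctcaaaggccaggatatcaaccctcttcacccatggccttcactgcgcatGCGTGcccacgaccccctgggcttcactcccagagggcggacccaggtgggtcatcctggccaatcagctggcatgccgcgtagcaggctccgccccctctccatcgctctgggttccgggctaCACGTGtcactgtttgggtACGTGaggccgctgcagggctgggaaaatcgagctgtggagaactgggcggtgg
Car9: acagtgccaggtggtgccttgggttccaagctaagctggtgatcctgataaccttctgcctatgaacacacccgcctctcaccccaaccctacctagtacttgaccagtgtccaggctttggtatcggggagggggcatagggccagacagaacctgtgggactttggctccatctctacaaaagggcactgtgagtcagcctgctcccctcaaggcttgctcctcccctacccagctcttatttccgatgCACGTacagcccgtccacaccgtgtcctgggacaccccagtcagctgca
The matches sit close together in Bnip3, at positions 143 to 161 of the window (first bases, counted from 1 at the 5′ end). In Car9 the only match starts at position 252, by the gene's start. In Ankrd37 they start at positions 15, 104, 228, 229 and 247, and in Higd1a at 59, 141 and 158. A match is a description of the sequence, and no binding was measured.

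Each array gave 1 intensity for each of 23188 probe sets, and array medians lay between 107 and 117. Levels are given as log2 intensity of a gene's own probe set, which cannot be set against another gene's level. Across probe sets, space arrays correlated with each other at r = 0.991 to 0.992 (3 pairs), ground arrays at 0.959 to 0.985 (10 pairs) and arrays of different regimes at 0.964 to 0.987 (15 pairs). Markers of the labelled cell type were ranked by their percentile within each array, which also depends on the probe set and so places a gene only roughly. Of the 9 listed myoblast and myotube markers 8 were measured, from Myf5, a myogenic factor, at the 5.0 to 18.9 percentile to Vim, the filament vimentin that many cell types make, at 99.9 to 100.0. The myogenic factors Myod1 and Myog lay at 52.1 to 69.4 and 42.4 to 89.2, the muscle filament gene Des at 47.9 to 63.7 and the acetylcholine receptor gene Chrna1 at 11.2 to 51.1. Of the 6 listed cardiomyocyte markers 5 were measured, from Ryr2 at 2.3 to 17.8 to Tnnt2 at 81.0 to 96.7. The 5 endothelial markers ran from Pecam1 at 8.9 to 15.8 to Kdr at 35.1 to 40.1. Among the 5 leukocyte markers Ptprc lay at 6.4 to 15.9, while Cd68 (54.1 to 62.8) and Cd14 (62.4 to 81.3) ranked as high as Myod1 and Des. These ranks therefore do not by themselves set the muscle label apart from the other lists. The files hold no detection measure, so dim levels may include background. Where a level differs in bulk RNA, fewer cells that make the transcript and less transcript per cell cannot be told apart.

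All 7 genes were higher in space. Over both treatments the median of their differences was 1.75 on the log2 scale, with a range from 0.84 to 3.32, against a median of -0.044 over all 23188 probe sets, of which 41.3% were higher in space. In 5 of the 7 (Ero1a, Bnip3, Higd1a, Adm and Vegfa) each of the 3 space arrays lay above all 5 ground arrays, a pattern shown by 1.97% of all probe sets. The genes were chosen on this contrast, so nothing is read from that share. The same holds for the ranks by this difference among all probe sets, which were 1 for Ero1a, 8 for Car9 and 9 for Bnip3. Higd1a ranked 15, Ankrd37 20, Adm 114 and Vegfa 416. Across all probe sets, limma called 0% at an adjusted p under 0.05. At an unadjusted p under 0.05, 5.30% were higher and 4.26% lower in space.

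Ero1a (probe set TC1500001440.rn.2) encodes the oxidase that recharges protein disulfide isomerase in the endoplasmic reticulum and gives off hydrogen peroxide as it does so. Its log2 intensity was 10.67 and 11.21 in nanoceria-treated cells in space and 11.51 in untreated cells in space, against 7.02, 10.05 and 6.86 in nanoceria-treated and 6.57 and 8.55 in untreated cells on ground. The regimes did not overlap, and the ground arrays spread over 3.48 against 0.84 for the space arrays. The difference, space minus ground, was 3.32 ± 0.76 (SE), or 9.96-fold, the highest of all 23188 probe sets. Within treatments it was 2.96 ± 1.00 in nanoceria-treated and 3.95 ± 1.34 in untreated cells.

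Bnip3 (probe set TC0100006874.rn.2) encodes a receptor on the outer mitochondrial membrane through which mitochondria are taken up for autophagy, and it can also promote cell death. Its log2 intensity was 11.50 and 12.00 with nanoceria in space and 11.91 without, against 9.06, 11.08 and 9.59 with nanoceria and 9.57 and 10.21 without on ground. All space arrays lay above all ground arrays, by 0.42 at the closest. The difference was 1.90 ± 0.41 (3.74-fold), rank 9 of all probe sets, with 1.84 ± 0.55 in nanoceria-treated and 2.02 ± 0.74 in untreated cells.

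Higd1a (probe set TC0800003590.rn.2) encodes a small protein of the inner mitochondrial membrane that associates with the respiratory chain. Higd1a had a log2 intensity of 11.27 and 11.86 with nanoceria in space and of 11.58 without, against 9.68, 11.16 and 9.41 with nanoceria and 9.17 and 9.49 without on ground. Ground nanoceria replicate 2 came within 0.11 of the lowest space array, and the other ground arrays formed a narrow band 0.51 wide. The difference was 1.75 ± 0.39 (3.37-fold), with 1.47 ± 0.50 in nanoceria-treated and 2.25 ± 0.67 in untreated cells.

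Adm (probe set TC0100002362.rn.2) encodes adrenomedullin, a secreted peptide that widens blood vessels. Its log2 intensity was 10.52 and 11.00 with nanoceria in space and 10.86 without, against 9.17, 10.22 and 9.28 with nanoceria and 9.25 and 10.03 without on ground. On ground, nanoceria replicate 2 and untreated replicate 3 stood together above the other 3 arrays. The difference was 1.21 ± 0.28 (2.31-fold), with 1.20 ± 0.38 in nanoceria-treated and 1.22 ± 0.51 in untreated cells.

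Vegfa (probe set TC0900000240.rn.2) encodes the main growth factor for blood vessel endothelium. Vegfa had a log2 intensity of 11.99 and 12.07 with nanoceria in space and 12.31 without, against 10.43, 11.47 and 11.25 with nanoceria and 11.53 and 11.95 without on ground. The regimes were separated by 0.04 at the closest, the lowest space array against untreated replicate 3 on ground. The difference was 0.84 ± 0.24 (1.79-fold), the smallest of the 7, with 0.98 ± 0.31 in nanoceria-treated and 0.57 ± 0.42 in untreated cells, the second being 0.36 without ground untreated replicate 1.

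Car9 (probe set TC0500000528.rn.2) encodes carbonic anhydrase 9, a membrane enzyme whose catalytic side faces out and acidifies the surroundings of the cell. On the log2 scale its intensity was 11.09 and 11.72 with nanoceria in space and 11.84 without, against 9.57, 11.97 and 9.43 with nanoceria and 8.35 and 8.25 without on ground. The regimes overlapped through ground nanoceria replicate 2 alone, which exceeded all 3 space arrays. The difference was 1.96 ± 0.67 (3.89-fold), with 1.08 ± 0.71 in nanoceria-treated and 3.54 ± 0.96 in untreated cells. The Car9 difference depended on single arrays, being 2.56 without ground nanoceria replicate 2. Leaving out space untreated replicate 1 leaves only the difference within nanoceria-treated cells, 1.08. Within nanoceria-treated cells it was 0.63 without ground nanoceria replicate 3, 0.70 without replicate 1 and 1.91 without replicate 2.

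Ankrd37 (probe set TC1600000584.rn.2) encodes an ankyrin repeat protein that has been described as a HIF target in human cells. Its log2 intensity was 6.86 and 7.89 with nanoceria in space and 8.26 without, against 5.96, 6.98 and 5.67 with nanoceria and 5.69 and 5.49 without on ground. The lowest space array lay just under ground nanoceria replicate 2, and all space arrays exceeded the other 4 ground arrays. The difference was 1.71 ± 0.41 (3.26-fold), with 1.17 ± 0.44 in nanoceria-treated and 2.67 ± 0.59 in untreated cells. Leaving out space untreated replicate 1 leaves only the Ankrd37 difference within nanoceria-treated cells, 1.17. That difference was 0.65 without space nanoceria replicate 2.

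**Figure D1:**
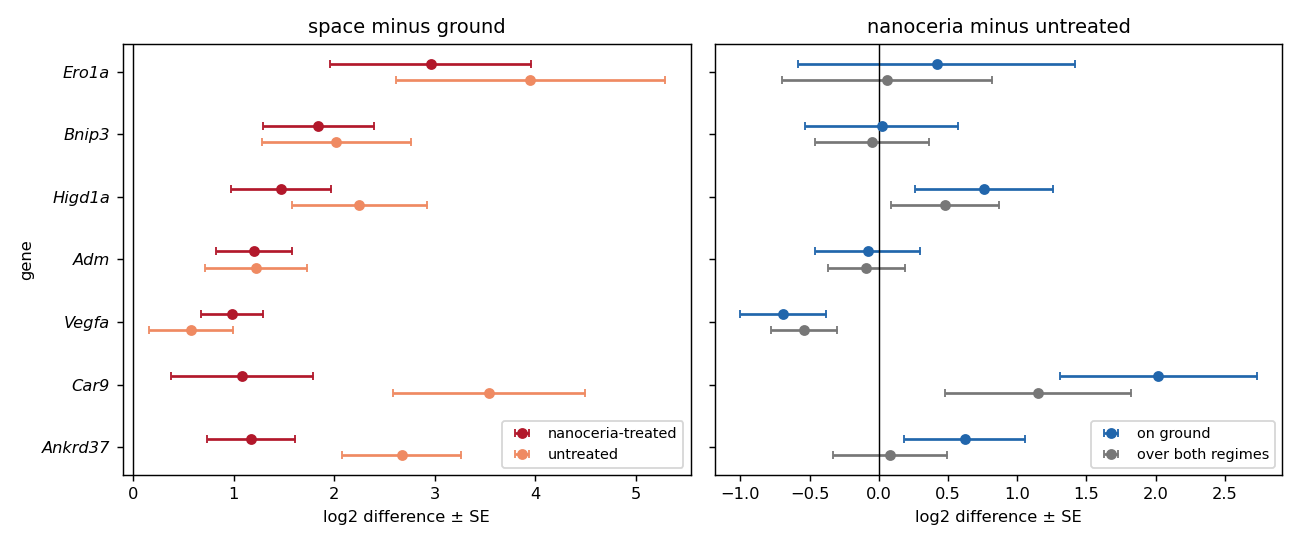
Log2 differences of the 7 genes with their standard errors (bars) from limma, on horizontal axes, for space minus ground within nanoceria-treated and within untreated cells (left) and for nanoceria minus untreated on ground and over both regimes (right); the line at 0 marks no difference. Every space difference lies above 0, from 0.57 to 3.95, while the nanoceria differences lie on both sides of 0, from -0.69 for Vegfa to 2.02 for Car9 on ground.

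By group mean, untreated cells in space (1 array) were highest for all 7 genes and nanoceria-treated cells in space came next. The lead of that 1 array was 0.02 for Higd1a, 0.1 for Adm, 0.17 for Bnip3 and up to 0.88 for Ankrd37. The genes were chosen on the space contrast, and the share of all probe sets with this order was not taken. Nothing is therefore read from the order. Ground nanoceria came above ground untreated for Ero1a, Bnip3, Higd1a, Car9 and Ankrd37, and below it for Adm and Vegfa. Among these neighbours the arrays of the 2 ground groups overlapped for Ero1a, Bnip3, Higd1a, Adm and Ankrd37. The 2 space groups overlapped for Bnip3, Higd1a and Adm. Nanoceria-treated cells in space and on ground overlapped for Car9 and Ankrd37.

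Ground nanoceria replicate 2 was the highest of the 5 ground arrays for 6 of the 7 genes, all but Vegfa, and for 12.9% of all probe sets. Set against the mean of the other 4 ground arrays it was higher by 3.08 for Car9, 2.80 for Ero1a, 1.72 for Higd1a, 1.47 for Bnip3, 1.28 for Ankrd37, 0.79 for Adm and 0.18 for Vegfa on the log2 scale. These are 116% of the distance from those 4 arrays to the space mean for Car9, 72.1% for Ero1a, 81.0% for Higd1a, 66.9% for Bnip3, 65.1% for Ankrd37, 58.1% for Adm and 21.2% for Vegfa. The array thus stood nearer to space than to the rest of its regime for 6 of the 7 genes. Without it, every space array exceeded every ground array for 7 of the 7, against 2.89% of all probe sets. Car9 and Ankrd37 had overlapped through this array alone. The genes were chosen on the space contrast, so nothing is read from that share either. Without this array the space differences were 3.98 for Ero1a, 2.26 for Bnip3, 2.11 for Higd1a, 1.41 for Adm, 0.95 for Vegfa and 2.00 for Ankrd37. What set this array apart was not tested.

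Untreated replicate 3 on ground was the second highest ground array for Ero1a (8.55), Bnip3 (10.21) and Adm (10.03) and the highest for Vegfa (11.95), but the lowest for Car9 (8.25) and Ankrd37 (5.49). Among the space arrays, nanoceria replicate 1 was the lowest for 7 of the 7 genes, with no share of all probe sets to set beside it. The arrays on ground spread wider than those in space for 7 of the 7 genes, and for 5 of the 7 without ground nanoceria replicate 2. These ranges set 5 ground arrays against 3 space arrays, and the share of all probe sets was not taken. Nothing is therefore read from these counts. Averaged over the 7 genes after centring each on its own mean, the level was 0.75 and 1.30 with nanoceria in space and 1.37 without, against -1.11, 0.61 and -1.03 with nanoceria and -1.22 and -0.67 without on ground.

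Nanoceria was compared with no treatment to see whether the particles changed these transcripts. None of the 7 genes passed the test, on ground, over both regimes or in the interaction of treatment and regime (limma, adjusted over all 23188 probe sets). On ground, 5 were higher and 2 lower with nanoceria, with a median difference of 0.42 against 0.038 over all probe sets. Of all probe sets 0% passed at an adjusted p under 0.05 and 11.0% at an unadjusted p under 0.05, and 1 of the 7 genes did the second. That gene was Car9, at 10.32 ± 1.43 (SD, n = 3) with nanoceria and 8.30 ± 0.07 (SD, n = 2) without, a difference of 2.02 ± 0.71 (SE; 4.07-fold; limma adjusted p = 0.382). The 3 nanoceria arrays of Car9 lay above both untreated arrays, as did 14.3% of all probe sets. Without ground nanoceria replicate 2 the Car9 difference was 1.20 (limma adjusted p = 0.2).

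Vegfa went the other way on ground, with 11.05 ± 0.55 (SD, n = 3) in nanoceria-treated and 11.74 ± 0.30 (SD, n = 2) in untreated cells, a difference of -0.69 ± 0.31 (SE; limma adjusted p = 0.472). Its nanoceria arrays lay below the untreated arrays on ground, as did 12.0% of all probe sets, and below the untreated array in space too, as did 6.37% for both regimes together. Over both regimes the Vegfa difference was -0.54 ± 0.24 (limma adjusted p = 0.522).

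The other 5 genes differed on ground by less than the SD of their nanoceria arrays. Ero1a differed by 0.42 ± 1.00 (limma adjusted p = 0.905), with 7.98 ± 1.80 (SD, n = 3) in nanoceria-treated and 7.56 ± 1.40 (SD, n = 2) in untreated cells. The sign changed with single arrays. The Ero1a difference was -0.62 without ground nanoceria replicate 2, -0.57 without ground untreated replicate 1, and 0.38 without ground nanoceria replicate 2 and ground untreated replicate 3 together. For Bnip3, at 0.02 ± 0.55 over all arrays, these were -0.56, -0.30 and -0.25 in the same order. Higd1a differed by 0.76 ± 0.50 (limma adjusted p = 0.611), Ankrd37 by 0.62 ± 0.44 (limma adjusted p = 0.638) and Adm by -0.08 ± 0.38 (limma adjusted p = 0.953). Without ground nanoceria replicate 2 these were 0.22 for Higd1a, 0.23 for Ankrd37 and -0.42 for Adm. Leaving out ground untreated replicate 3 instead gave 1.41 for Ero1a and 0.31 for Adm.

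Over both regimes limma called 0% of all probe sets at an adjusted p under 0.05 and 9.63% at an unadjusted p under 0.05, and 0 of the 7 genes by either rule. Car9 differed by 1.15 ± 0.67, Higd1a by 0.48 ± 0.39, Ankrd37 by 0.08 ± 0.41, Ero1a by 0.06 ± 0.76, Bnip3 by -0.05 ± 0.41 and Adm by -0.09 ± 0.28. In space, where untreated cells had a single array, both nanoceria arrays lay below it for 4 of the 7 genes (Ero1a, Vegfa, Car9 and Ankrd37), against 31.5% of all probe sets. The nanoceria means differed from that array by -0.58 for Ero1a, -0.28 for Vegfa, -0.43 for Car9 and -0.88 for Ankrd37, and by -0.02 to -0.17 for Higd1a, Adm and Bnip3.

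Whether the nanoceria difference depended on regime was tested with the interaction, which called 0% of all probe sets at an adjusted p under 0.05. The 7 genes were among those not called. The interaction was -2.46 ± 1.19 for Car9 and -1.50 ± 0.73 for Ankrd37 (limma adjusted p = 1.0 for both). Its median over the 7 genes was -0.78.

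Muscle lineage markers are given beside these values. Of the 8 measured myoblast and myotube markers, 8 were higher with nanoceria on ground, against 55.5% of all probe sets, with a median of 0.89. At an unadjusted p under 0.05 there were 4 of them, against 11.0% of all probe sets, and at an adjusted one 0. Their centred mean was 0.44, 0.27 and 0.52 on the nanoceria arrays and -0.24 and -1.03 on the untreated arrays on ground, and -0.22, 0.13 and 0.13 on the space arrays. Between space and ground their median difference was 0.02. Their part in the nanoceria values of the 7 genes was not tested.

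Genes that work with the 7 were set beside them from lists chosen with earlier results known. Among other HIF targets, enzymes of glucose supply included, 33 of 40 listed genes were measured, 26 were higher and 7 lower in space, and the median difference was 0.46. The list was chosen with this contrast known, so its counts are a description and nothing is read from them. None had an adjusted p under 0.05, while 15 of the 33 were higher and 0 lower at an unadjusted p under 0.05, against 5.30% and 4.26% of all probe sets. Pdk1, the mitochondrial kinase that inhibits pyruvate dehydrogenase, was higher by 2.35 ± 0.74. Stc1, the secreted glycoprotein stanniocalcin, was higher by 2.15 ± 0.46 and the collagen lysyl hydroxylase gene Plod2 by 1.79 ± 0.59. The lowest were the adenosine receptor gene Adora2b at -0.38 ± 0.23, the endothelin gene Edn1 at -0.29 ± 0.25 and the erythropoietin gene Epo at -0.24 ± 0.26. In 7 of the 33 the space arrays lay above all ground arrays (1.97% of all probe sets), and in 16 above the 4 ground arrays other than nanoceria replicate 2 (2.89% of all probe sets). That array was the highest on ground for 18 of the 33, against 12.9% of all probe sets.

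The transcripts of the oxygen sensing machinery itself gave other values. Of 10 listed genes for HIF subunits, hydroxylases and Vhl, 9 were measured. In space 3 were higher and 6 lower, with a median of -0.11 and 0 at an unadjusted p under 0.05 in either direction. Hif1a differed by 0.33 ± 0.26, Epas1 (HIF-2 alpha) by 0.08 ± 0.15, Arnt by -0.11 ± 0.14 and Vhl by 0.12 ± 0.13. Hif1an, the asparaginyl hydroxylase that inhibits HIF, was at -0.61 ± 0.27 and Hif3a at -0.51 ± 0.25. Epas1 and Hif3a ranked low within the arrays, at the 7.1 to 15.3 and 4.5 to 24.3 percentile. For nanoceria minus untreated on ground Hif1a was at -0.95 ± 0.33 (limma adjusted p = 0.371). HIF alpha subunits are controlled largely as proteins, which were not measured.

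**Figure D2:**
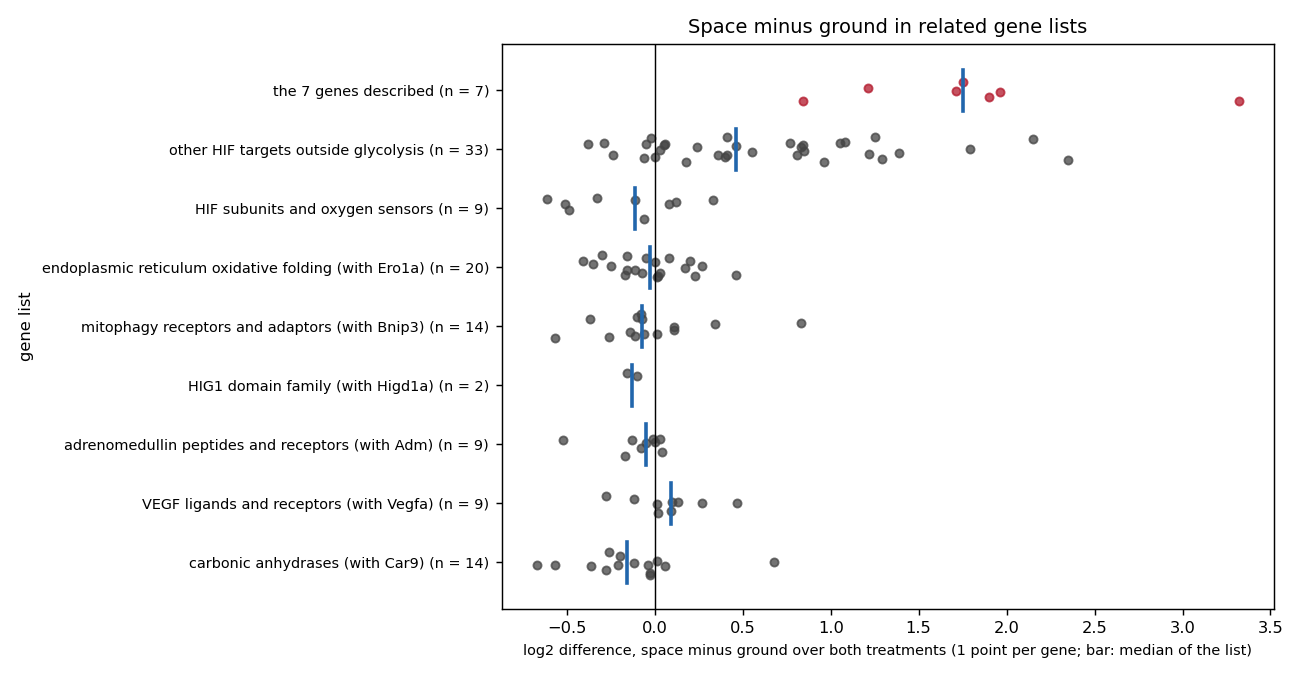
Space minus ground log2 difference (horizontal axis) of every measured gene of the 7-gene set and of 8 related lists (rows), with 1 point per gene and a bar at each list's median. The 7 genes lie between 0.84 and 3.32 and the other HIF targets reach 2.35, while the medians of the remaining lists lie between -0.16 and 0.09.

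Partners of single members mostly lay near 0. The endoplasmic reticulum folding list around Ero1a had 10 genes higher and 10 lower in space, with a median of -0.02, and 0 higher and 3 lower at an unadjusted p under 0.05. Ero1b, the paralog of Ero1a, differed by -0.16 ± 0.12 and P4hb, the disulfide isomerase that Ero1a oxidises, by 0.17 ± 0.12. The chaperone gene Hspa5 was at -0.17 ± 0.26, Dnajb9, its cochaperone, at 0.46 ± 0.27, the calcium-binding chaperone gene Calr at -0.41 ± 0.15 and the stress-response factor gene Xbp1 at -0.30 ± 0.12. Of 14 measured mitophagy genes around Bnip3, 5 were higher and 9 lower, with a median of -0.08, and 1 was higher and 2 lower at an unadjusted p under 0.05. Its paralog Bnip3l was at 0.83 ± 0.32 and the autophagy adaptor gene Sqstm1 at -0.57 ± 0.24. Higd2a, of the same family as Higd1a, was at -0.16 ± 0.16.

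Among the 9 genes for adrenomedullin-type peptides and receptors 2 were higher and 7 lower, with a median of -0.05 and Ramp2, a receptor partner, at -0.52 ± 0.17, the single gene of the list at an unadjusted p under 0.05. Among the 9 other ligands and receptors of the vascular growth factor family 7 were higher and 2 lower, with a median of 0.09 and Vegfc, a growth factor for lymph vessels, at 0.47 ± 0.14, again the single gene at an unadjusted p under 0.05. Among 14 other carbonic anhydrases 3 were higher and 11 lower, with a median of -0.16, and 1 was higher and 2 lower at an unadjusted p under 0.05. The muscle enzyme gene Car3 was at 0.68 ± 0.24 and Car8, which lacks catalytic activity, at -0.67 ± 0.34. No gene of these lists had an adjusted p under 0.05.

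The genes whose levels most resembled the 7 were looked for among 1532 genes whose SD over the 8 arrays was at least 0.5 on the log2 scale. Pearson's r over the 8 arrays, in which the 3 space arrays share a regime and a culture run, serves only as a description. Against the mean profile of the 7, r was 0.984 for Stc1 (Spearman's rho 0.762), 0.977 for Pygl, the liver-type glycogen phosphorylase, 0.968 for Sik1, a salt-inducible kinase, and 0.961 for Eno2, an enolase. It was 0.961 for Plod2, 0.960 for Mtss1, 0.955 for Pdk1, 0.952 for Abca4, 0.940 for the glycolytic kinase Pgk1 and 0.939 for the prolyl hydroxylase gene P4ha1. Stc1 was at 9.11 and 9.67 with nanoceria in space and 9.50 without, against 6.89, 8.85 and 6.71 with nanoceria and 6.97 and 6.87 without on ground, so it too was high on ground nanoceria replicate 2.

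The genes nearest to each single member differed. Eno2 was nearest to Ero1a (r = 0.979), the glycogen branching enzyme gene Gbe1 to Bnip3 (0.964), Pygl to Higd1a (0.990) and to Ankrd37 (0.960), and Vtcn1 to Adm (0.966). Ndrg2 (0.996) and Tmem106a (0.992) were nearest to Car9, and both had their lowest values on the untreated ground arrays. Vegfa had none of the 10 genes above among its nearest 3, which were Tent2 (0.982), Map3k2 (0.971) and Nr3c1, the glucocorticoid receptor (0.970). Tent2 was at 9.43 and 9.17 with nanoceria in space and 9.48 without, against 7.87, 8.78 and 8.66 with nanoceria and 8.92 and 9.26 without on ground, with the same lowest array as Vegfa.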

How the data were processed

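Total RNA (30 ng per sample, with 500 pg of HeLa RNA as control) was measured on 8 rat Clariom S Pico arrays. The authors deposited linear intensity values, for which the submitters' processing notes name RMA; software and settings are not given in the sources used here. They ran from 8.63 to 19506, so log2 was taken with no pseudocount, where the design had allowed for either scale. Of 23188 probe sets, 15049 had 1 gene symbol, 8139 had none here and 0 had several. All probe sets were fitted in limma 3.58.1 (R 4.3.3), and p-values were adjusted after Benjamini-Hochberg with a threshold of 0.05. Space against ground, and nanoceria pooled over regimes, came from a model in which regime and treatment add up (5 residual degrees of freedom). Differences within a treatment, nanoceria on ground and the interaction came from a model of the 4 group means (4 residual degrees of freedom), which lends the lone untreated space array the spread of the other groups. The fits were run on simulated data with independent noise of equal spread on all arrays. Those data had no deviation of 1 array shared by many genes and no unequal spread between groups. They therefore cannot show how the p-values hold where these occur.

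The 7 genes, the lists and the tests were chosen with earlier results of these data known. From each list up to 3 highest and 3 lowest genes could be named, with the HIF and single-member lists open to a mention; the 10 genes most like the mean profile and the 3 most like each gene completed the rule. Some genes stand in 2 lists. The labels do not say that replicates were separate cultures, so the p-values cover only how these samples spread, which may be technical. Promoter windows are from RefSeq (GRCr8), and the array's reference was an older build. Alternatives were cyclic loess, arrays set to equal medians, a filter that kept the brighter 66.7%, a trended robust variance, array weights, the replicate number as a block, and leaving out each array. Leaving out ground nanoceria replicate 2 and ground untreated replicate 3 together was chosen after seeing the data.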

Additional observations from a re-analysis of the deposited data

Results flagged for a closer look

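The difference between nanoceria-treated and untreated cells ran in opposite directions in space and on ground for Car9. In space both nanoceria arrays (11.09 and 11.72) lay below the untreated array (11.84), and on ground all 3 nanoceria arrays (9.57, 11.97 and 9.43) lay above both untreated arrays (8.35 and 8.25). The interaction was -2.46 ± 1.19 on the log2 scale (limma unadjusted p = 0.0762, adjusted p = 1.0), so the difference between regimes did not pass the test, and its adjusted p ran from 0.896 to 1.0 over the alternatives. It was -1.63 without ground nanoceria replicate 2. The space side rests on 1 untreated array, and the share of all probe sets with the Car9 pattern was not taken. By group mean the direction also differed for Ankrd37 (-0.88 in space, 0.62 on ground), Ero1a (-0.58, 0.42), Higd1a (-0.02, 0.76) and Bnip3 (-0.17, 0.02). For those genes the nanoceria and untreated arrays overlapped on ground. Groups of 4 or more arrays did not occur, so no single array was compared with the rest of its group by a gap test.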

How the results depend on the processing

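The number of arrays limits every value here, and the untreated group in space has 1 array. The higher level of the 7 genes in space kept its direction under all alternatives, in both treatments. The genes were chosen with this contrast known and the alternatives refit the same arrays, so the kept direction is a description only. When single arrays were left out, the median difference over both treatments ran from 1.20 to 2.11. It was 2.15 without ground nanoceria replicate 2 and ground untreated replicate 3 together, the setting chosen after seeing the data. The median ran from 0.97 to 1.91 in nanoceria-treated cells and from 2.09 to 2.41 in untreated cells. In untreated cells only leaving out a ground untreated array changed it. The number of the 7 with all space arrays above all ground arrays ran from 5 to 7. None of the nanoceria differences or interactions of the 7 passed the threshold under any alternative, and their adjusted p ran from 0.2 to 0.995 on ground, from 0.382 to 0.996 over both regimes and from 0.896 to 1.0 for the interaction. Where a sign changed the cause was not tested. Without space untreated replicate 1, space against ground in untreated cells and the interaction could not be fitted. Space against ground over both treatments was then the difference in nanoceria-treated cells, which gave the 1.20. Nanoceria over both regimes was then the difference on ground, which gave the limma adjusted p of 0.382.

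Over all probe sets, space against ground gave 4 calls with array weights in place of 0, and 0 to 2 when arrays were left out: 1 without ground untreated replicate 3, 1 without ground nanoceria replicate 2 and 2 without both. Stc1 passed without ground nanoceria replicate 2 (2.59, limma adjusted p = 0.0191) and without both arrays (2.57). In untreated cells 0 to 6 passed, and for nanoceria on ground 0 to 167, in each case with the highest count without ground untreated replicate 1.

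The median nanoceria difference of the 7 ran from -0.42 to 0.88 on ground, from -0.29 to 0.42 over both regimes and from -1.11 to 0.04 for the interaction when arrays were left out. On ground it was -0.30 without ground untreated replicate 1 and -0.42 without ground nanoceria replicate 2. Signs on ground changed for Ero1a (-0.62 to 1.41), Bnip3 (-0.56 to 0.44) and Adm (-0.47 to 0.31). Over both regimes they changed for Ero1a (-0.60 to 0.48), Bnip3 (-0.41 to 0.20), Adm (-0.30 to 0.11) and Ankrd37 (-0.22 to 0.62), and in the interaction for Ero1a (-1.99 to 0.04), Bnip3 (-0.61 to 0.40) and Adm (-0.41 to 0.37). The upper ends of 0.42 for the median and 0.62 for Ankrd37 over both regimes came without space untreated replicate 1. That fit gives the difference on ground. Cyclic loess gave -0.05 for Bnip3 on ground and 0.02 for Adm in the interaction. Array weights gave a median of 0.90 on ground and of -1.17 for the interaction, 0.15 for Adm on ground, and 0.05 for Bnip3 and -0.15 for Ankrd37 over both regimes. Between space and ground, Epas1 ran from -0.05 to 0.21 and Hspa5 from -0.33 to 0.09 when arrays were left out.

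Whether the replicate numbers pair the samples was not settled. The deviations of same-numbered arrays from their group means had correlations of -0.348 to -0.013. With 2 or 3 arrays in a group these cannot decide it. With the replicate number as a block, the median nanoceria difference on ground was -0.21, with Ero1a at -0.21 and Bnip3 at -0.36, and over both regimes the median was -0.39, with Ero1a at -0.69 and Ankrd37 at -0.32. Its median for the interaction was -0.95. The block left 0 calls in each comparison.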
